A study of Mus musculus with 4 samples.

Results

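The loci of 10 genes grouped here as factors of naive and stem-like T cells were examined in a STARR-seq experiment on mouse Th17 cells. The genes were Tcf7, Lef1, Bach2, Satb1, Bcl11b, Tox, Foxo1, Klf2, Id3 and Myb. An element belonged to a locus when the nearest start site of a protein-coding transcript to its centre, in the GENCODE vM21 annotation, was that of the gene and lay within 100 kb. Under this rule 63 of the 24217 elements listed on the chromosomes were members, and all 10 genes had at least 1. The link is one of position alone, and no measurement here shows which gene an element acts on.

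STARR-seq clones genomic fragments into the transcribed part of a reporter, so that a fragment with enhancer activity raises the amount of its own RNA. The measurement is made on an episome, outside the fragment's own chromatin, and it does not measure the expression of the gene nearby. The study has 1 group of 4 samples, labelled as biological replicates 1 to 4 and all bearing the same donor identifier. The labels give them as primary activated T helper 17 cells of mouse strain C57BL/6NJ, of unstated age and with sex not collected, that carried the episome after transient transfection. For 3 days all 4 samples had antibodies against CD3e (0.25 µg/mL), CD28 (1 µg/mL), interleukin-4 (2 µg/mL) and interferon-gamma, together with interleukin-6. Separate samples are named but separate animals are not, so the spread behind the p-values may be technical. No unstimulated or naive cells, and no other T helper lineage, enter this comparison, and with no expression values the labelled cell type could not be checked by its markers.

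Each element has 1 log2 fold change, 1 p-value and 1 q-value in the authors' deposited table, in which the 4 replicates are combined, and no value per replicate. Neither the spread between replicates nor the depth is therefore known. Which way the ratio runs is not stated. It was read as reporter RNA over input, so an element is called higher when its value is above 0 and lower when it is below 0, and the words would change places if the ratio ran the other way. Only elements with a q-value under 0.01 are listed. They are 21.1% of the 114722 tests that the q-values imply, and the tests behind the members that were not listed are not analysed here, so counts are counts of listed elements.

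TCF-1 and LEF-1, the products of Tcf7 and Lef1, are HMG-box factors that keep T cells able to self-renew and that work with beta-catenin and Groucho-type corepressors. FOXO1 keeps resting T cells quiescent and recirculating, in part through KLF2, and leaves the nucleus when antigen receptor and cytokine signals activate AKT. BACH2 is a repressor that occupies AP-1 sites and restrains effector differentiation, while SATB1, BCL11B, TOX, ID3 and MYB shape chromatin, lineage commitment or the persistence of precursor cells. Activation through the antigen receptor and CD28 induces AP-1, NFAT and NF-kB, and interleukin-6 signals through STAT factors.

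Across the 10 loci, 25 elements were higher and 38 were lower, all at the authors' q-value under 0.01. The share of higher elements was 39.7% (exact 95% interval 27.6 to 52.8%, counting error only), beside 49.4% of all listed elements and 45.7% of the 22068 that lay within 100 kb of a coding start site. The median log2 fold change was -0.80, beside -0.59 for all listed elements, and single values ran from -3.05 at Myb to 3.18 at Bach2. All 14 member elements within 1 kb of a start site were lower, beside 86.7% of all listed promoter-proximal elements. Every one of the 25 higher elements was distal, as were 24 of the lower ones. All 10 genes had a lower element at a start site, and 8 of the 10 also had a higher distal one, the exceptions being Tox and Klf2.

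**Figure D1:**
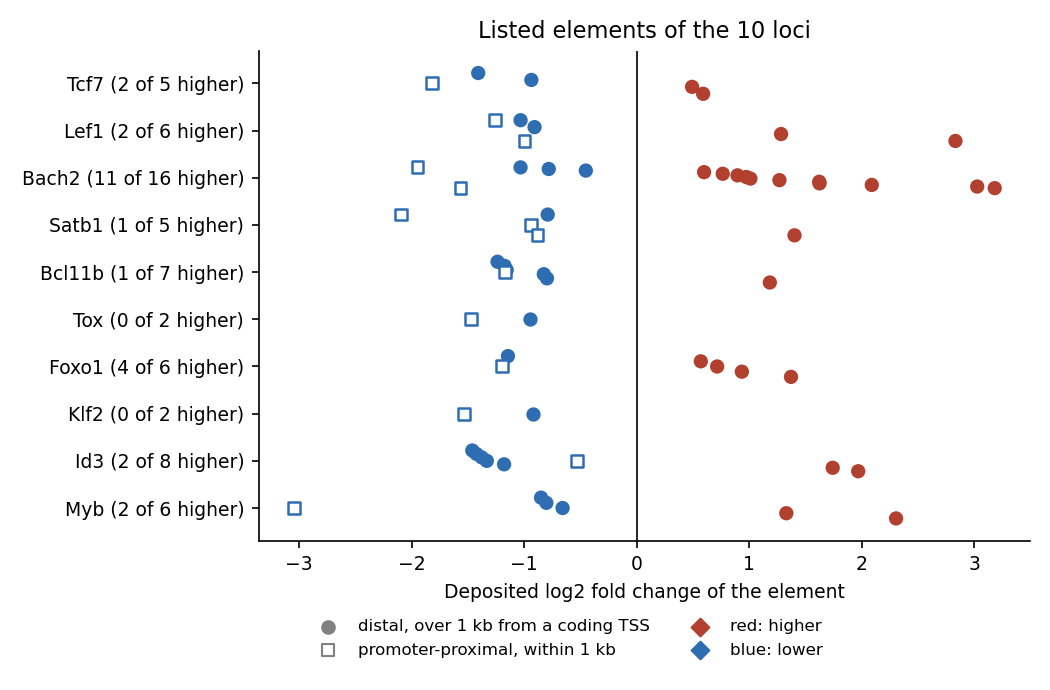
Deposited log2 fold change (x axis) of each of the 63 listed elements of the 10 loci (y axis). Filled circles are distal elements, open squares those within 1 kb of a coding start site, red is higher and blue is lower. Every open square lies below 0, Bach2 carries 11 of the 25 higher elements, and the value closest to 0 is -0.45.

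The 5 higher elements shown first are the highest at Bach2, Lef1, Id3 and Foxo1, with the second at Bach2. They are shown because they include the largest values of the 10 loci and stretches both with and without words for factors of activation. All are mm10 sequence of the plus strand, the whole element where it is at most 300 bp and otherwise the 300 bp about its centre. Capitals mark matches on either strand to words for TCF/LEF, FOXO, MYB, BACH/MAF, AP-1, CREB/ATF, IRF, STAT, NF-kB, NFAT, RUNX, ETS, GATA and NR4A factors. A match is a match of letters and not a shown binding site.
Bach2 highest element: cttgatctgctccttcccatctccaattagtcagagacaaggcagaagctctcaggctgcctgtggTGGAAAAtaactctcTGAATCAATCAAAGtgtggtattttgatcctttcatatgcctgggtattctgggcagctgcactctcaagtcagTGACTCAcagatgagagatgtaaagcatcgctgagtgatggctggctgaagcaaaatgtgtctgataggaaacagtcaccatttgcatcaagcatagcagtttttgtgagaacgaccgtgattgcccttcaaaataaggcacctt
Bach2 second element: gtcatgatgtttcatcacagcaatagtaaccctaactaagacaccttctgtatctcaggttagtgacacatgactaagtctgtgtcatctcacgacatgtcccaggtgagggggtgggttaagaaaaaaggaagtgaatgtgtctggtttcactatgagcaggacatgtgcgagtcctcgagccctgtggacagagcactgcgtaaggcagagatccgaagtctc
Lef1 highest element: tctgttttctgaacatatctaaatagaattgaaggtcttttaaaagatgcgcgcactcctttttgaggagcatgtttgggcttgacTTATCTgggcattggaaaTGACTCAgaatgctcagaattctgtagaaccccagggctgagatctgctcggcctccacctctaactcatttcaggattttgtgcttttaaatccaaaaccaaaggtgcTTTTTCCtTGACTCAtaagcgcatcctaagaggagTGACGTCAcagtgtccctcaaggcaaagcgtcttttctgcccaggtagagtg
Id3 highest element: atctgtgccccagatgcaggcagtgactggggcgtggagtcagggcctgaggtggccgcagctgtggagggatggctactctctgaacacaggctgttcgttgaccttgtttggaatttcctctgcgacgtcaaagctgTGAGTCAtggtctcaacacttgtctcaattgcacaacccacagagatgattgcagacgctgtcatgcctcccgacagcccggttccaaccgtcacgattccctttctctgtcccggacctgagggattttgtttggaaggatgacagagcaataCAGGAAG
Foxo1 highest element: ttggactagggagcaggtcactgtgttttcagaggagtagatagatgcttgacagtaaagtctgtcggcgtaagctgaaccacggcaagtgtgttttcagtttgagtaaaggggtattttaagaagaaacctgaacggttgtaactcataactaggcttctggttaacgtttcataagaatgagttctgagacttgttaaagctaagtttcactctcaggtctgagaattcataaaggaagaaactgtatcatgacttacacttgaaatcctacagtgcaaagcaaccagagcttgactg

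The Bach2 stretch at chr4:32405626-32405925 held the AP-1 words TGAATCA from base 82 and TGACTCA from base 156. A TCF/LEF word, ATCAAAG, began at base 89 and ran on from the first of these, and an NFAT word began at base 67. The other Bach2 element, chr4:32401551-32401775, had a value almost as high and no word of the marked kinds. In the Lef1 stretch, chr3:131169189-131169488, the AP-1 word TGACTCA stood at bases 105 and 222, with the CREB/ATF word TGACGTCA at base 249. The Id3 stretch, chr4:136117089-136117388, had 1 AP-1 word, TGAGTCA, at base 140, and the Foxo1 stretch, chr3:52271476-52271775, had none of the marked words.

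The lower elements shown next are those at the Tcf7 and Myb starts, the pair with the richest GC content at Id3 and Foxo1, and a 50 bp element before Lef1. They are shown because they are rich in G and C, and the capitals now mark the KLF word CCNCNCCC on either strand.
Tcf7 start element: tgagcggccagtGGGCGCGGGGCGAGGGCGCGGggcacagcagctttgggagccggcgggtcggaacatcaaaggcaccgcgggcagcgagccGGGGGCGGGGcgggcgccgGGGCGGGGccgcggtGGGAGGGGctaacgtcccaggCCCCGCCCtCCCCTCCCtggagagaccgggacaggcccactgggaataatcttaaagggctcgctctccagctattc
Myb start element: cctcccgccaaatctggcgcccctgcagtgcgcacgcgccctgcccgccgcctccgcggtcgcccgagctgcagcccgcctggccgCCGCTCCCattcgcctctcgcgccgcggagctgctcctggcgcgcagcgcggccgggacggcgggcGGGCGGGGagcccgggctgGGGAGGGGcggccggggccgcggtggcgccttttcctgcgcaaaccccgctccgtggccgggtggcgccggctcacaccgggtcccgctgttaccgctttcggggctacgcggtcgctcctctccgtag
Id3 downstream element: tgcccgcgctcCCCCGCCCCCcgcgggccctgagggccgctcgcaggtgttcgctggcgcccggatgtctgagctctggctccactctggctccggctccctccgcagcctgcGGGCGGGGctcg
Foxo1 upstream element: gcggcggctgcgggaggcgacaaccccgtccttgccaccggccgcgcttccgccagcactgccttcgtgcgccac
Lef1 upstream element: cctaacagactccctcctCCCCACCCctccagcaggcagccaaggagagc

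The Tcf7 element, chr11:52283301-52283525, held 9 KLF words, some overlapping, in 225 bp. The Myb stretch, chr10:21160985-21161284, and the Id3 element, chr4:136147926-136148050, held 3 each. The Lef1 element, chr3:131110201-131110250, held 1, and the Foxo1 element, chr3:52196451-52196525, held none within its 75 bp. KLF2 itself is among the factors that bind such GC-rich words, as are SP1 and its relatives.

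At Tcf7, the gene of TCF-1, the values of the 5 elements were small or negative. A higher element in intron 3, chr11:52260951-52261275, had a log2 fold change of 0.59 (q = 0.00113) and lay 21.5 kb into the gene from its nearest start site. The other higher element, chr11:52299426-52300125, lay 16.8 kb upstream and had a value of 0.49 (q = 0.00560). Both ranked near the bottom of the 11961 higher elements of the table, at 11734 and 11933. The 225 bp start element shown above, 399 bp upstream of the start site, was the lowest at -1.82 (q = 3.71e-06). In intron 2, chr11:52274851-52275025 had -1.41 and chr11:52281201-52281400 had -0.94. The intron 3 element held 2 AP-1 words and 1 BACH/MAF word, the only higher element of the 25 with the latter.

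Lef1, whose product can stand in for TCF-1, had 6 elements, 2 of them higher. The intron 3 element chr3:131169001-131169675 had 2.83 (q = 1.02e-17), lay 56.5 kb from the nearest coding start site and ranked 1287 among higher elements. The other higher element, chr3:131085101-131085600, lay 25.1 kb upstream with 1.28 (q = 0.000263), and both had AP-1 words. The 4 lower elements were close together in value, from -1.26 for the 50 bp element shown above to -0.91 for another of 50 bp 4.3 kb upstream. Between them were -0.998 for chr3:131112001-131112825 beside a second start site and -1.03 for chr3:131143401-131143900 in intron 3. The last held an AP-1 word and a BACH/MAF word and was lower all the same.

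Foxo1 was the only locus besides Bach2 in which most elements were higher, 4 of 6. The pair in intron 1 stood 2.3 and 3.3 kb from the start: chr3:52270501-52270850 had 0.93 (q = 1.76e-05) and chr3:52271451-52271800 had 1.37 (q = 2.48e-10). A second pair lay upstream, with 0.71 for chr3:52198001-52198625 and 0.57 for chr3:52199376-52199650, 68.8 kb out for the nearer one. The 75 bp element shown above lay 1475 bp before this pair and had -1.14. The start element, chr3:52268001-52268500, had -1.19 (q = 4.05e-07). In the central 300 bp, AP-1 words were found in the upstream pair and not in the intron 1 pair, and no Foxo1 element held the FOXO word TGTTTAC. Over whole elements the first of the intron 1 pair held 1 AP-1 word and 1 Foxo1 element held the FOXO word.

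Klf2, a target of FOXO1 that drives the exit of T cells from lymphoid organs through S1pr1, had 2 elements, both lower. The element over its start and first coding exon, chr8:72318726-72319450, had -1.54 (q = 1.32e-07). The other, chr8:72365751-72366575, had -0.92 (q = 0.00865) and lay 47.1 kb downstream in an intron of Eps15l1. Neither held an AP-1 word or a KLF word in its central 300 bp, but over their whole lengths the start element held 10 KLF words and the other 1 AP-1 word.

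Bach2 had 16 elements, the most of the 10 loci, of which 11 were higher. Of the 11543 genes with a linked element only Foxp1 (20), Rbpj (16) and Bach2 had as many, and the median gene had 1. Bach2 spans 347 kb, and an internal coding start site 179 kb into the gene brings more sequence under the rule. The Bach2 elements from 113 to 263 kb into the gene, the 2 highest included, are members through that site alone. Tox spans 305 kb with 1 coding start site and had 2 elements. With 1 start site per coding gene, 18 of 55 member elements over the 10 loci were higher (32.7%). Among distal elements 11 of 14 were higher at Bach2 (78.6%, exact 95% interval 49.2 to 95.3%) and 14 of 35 at the other 9 genes (40%, 23.9 to 57.9%), beside 72.7% of all listed distal elements. The 2 intervals overlap, and the share of all distal elements lies within that of Bach2 and above that of the other 9 genes. Both intervals cover counting error only and treat neighbouring elements as independent.

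The highest values of the 10 loci stood side by side in intron 2 of Bach2. The element chr4:32405226-32406325 had 3.18 (q = 6.22e-17) and chr4:32401551-32401775 had 3.03 (q = 4.05e-19), with 3450 bp between them. They ranked 902 and 1063 among the higher elements of the table. Both belonged to a run of 5 elements over 31.4 kb that ended upstream of an internal coding start site, 179 kb from the first base of the gene. The other 3 of the run had 1.62 for chr4:32374926-32375775, -1.03 for chr4:32376401-32376575 and 1.62 for chr4:32391251-32391625. The lower element of the run was 175 bp long, lay 625 bp from its higher neighbour and had 56.0% GC against 44.1%.

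Elsewhere in the gene, chr4:32250551-32251350 in intron 1 had 2.09 (q = 2.99e-16) and held 2 NFAT words and no AP-1 word in its central 300 bp, but 2 AP-1 words over its 800 bp. The remaining higher Bach2 elements ran from 0.60 to 1.27. At the 5' start, both elements were lower, with -1.57 for chr4:32238351-32238825 and -1.95 for chr4:32239376-32240125, the lowest of the locus. The other 2 lower elements were in intron 1, with -0.45 and -0.78. No listed element lay within 1 kb of the internal start site.

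**Figure D2:**
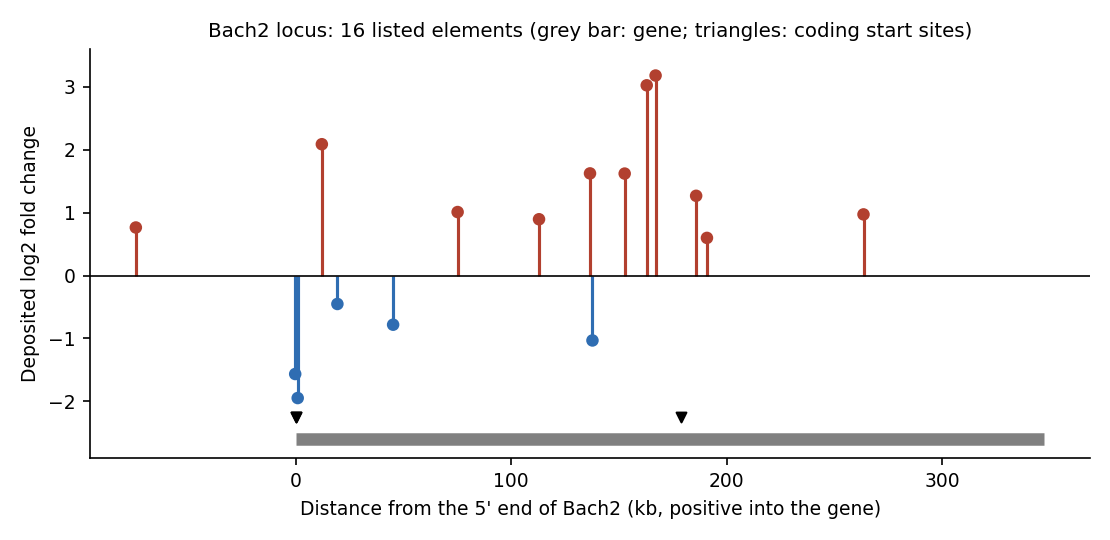
The 16 listed Bach2 elements by distance of their centre from the 5' end of the gene in kb (x axis) and deposited log2 fold change (y axis). The grey bar is the gene and black triangles are coding start sites. The pair of elements at 3.03 and 3.18 stands upstream of the internal start site, while the pair at the 5' start lies at -1.57 and -1.95.

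Satb1, which encodes a chromatin organiser of thymocytes and naive T cells, had 4 lower elements within the gene and 1 higher element outside it. The lowest was at the upstream start, chr17:51832951-51833550, with -2.10 (q = 4.34e-10), and the next start-site elements were chr17:51814326-51814625 with -0.94 and chr17:51826201-51826800 with -0.88. These last ones had 42.7% and 50.7% GC, the least of the 14 start-site elements, and they were lower too. A 75 bp element in intron 1, chr17:51823951-51824025, had -0.79. The higher element, chr17:51903901-51904175, lay 70.7 kb upstream with 1.40 (q = 2.56e-07) and held an ETS word and no AP-1 word.

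Bcl11b, needed for commitment to the T cell lineage, had 1 higher element of 7. It lay in intron 3 at chr12:107962026-107962250 and had 1.18 (q = 1.05e-06), with 1 AP-1 word and 1 RUNX word. A 75 bp element 775 bp from it had -1.17. The lowest Bcl11b value was -1.24, for a 50 bp element in the same intron, and the start element chr12:108003876-108004500 had -1.17 (q = 6.66e-06). Of its 7 elements 3 were 50 or 75 bp long.

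Tox, which encodes an HMG-box factor of T cell development and exhaustion, had only 2 elements, both lower. The start element chr4:6990551-6991550 had -1.47 (q = 6.83e-07). The 50 bp element chr4:6989576-6989625, 1.2 kb into the gene, had -0.95. Neither held an AP-1 or TCF/LEF word, and the start element held 2 NFAT words outside its central 300 bp.

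Id3, whose product binds E proteins and keeps them off DNA, had 8 elements and a run of lower ones around a very short gene. Its 2 higher elements lay upstream: chr4:136116951-136117525 had 1.97 (q = 2.51e-12) at 26.3 kb and chr4:136123051-136123925 had 1.74 (q = 3.97e-09) 20009 bp out. Each held 1 AP-1 word. Farther out, chr4:136099951-136101050 had the lowest value of the locus, -1.46 (q = 8.34e-05). The smallest absolute value was at the start, -0.53 for chr4:136143601-136144225, and the 3 elements from 1.3 to 4.5 kb downstream ran from -1.42 to -1.18 with GC contents from 66.7% to 78.4%. The first Id3 element had the highest GC content of all 25 higher elements, 56.7%.

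Myb, which supports the survival and self-renewal of lymphoid precursors and stem-like memory cells, had 6 elements, 2 of them higher, and the lowest value of the 10 loci. The start element chr10:21160901-21161375 had -3.05 (q = 1.78e-11) and ranked 528 of the 12256 lower elements. One of the higher elements, chr10:21204426-21204975, lay 43.7 kb upstream, had 1.33 (q = 7.47e-08) and held a TCF/LEF word and an NR4A word. The lower elements upstream were -0.85 for chr10:21187901-21188175 and -0.66 for chr10:21222676-21223025. The intron 1 element chr10:21158401-21159325 had -0.80.

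The direction at start sites was that of the table as a whole, though no start-site element of the 10 loci was higher. Their median was -1.37, beside -1.22 for the 9508 listed promoter-proximal elements, of which 13.3% were higher. A count of 0 of 14 has an exact 95% interval of 0 to 23.2%, which contains that share. The distal elements had 25 of 49 higher (51.0%, interval 36.3 to 65.6%) and a median of 0.49, beside 72.7% and 1.16 for all 14709 distal elements and 70.3% for those within 100 kb. That interval lies below both shares, but it covers counting error only, treats neighbouring elements as independent and takes no account of GC content. Between 1 and 20 kb, 8 of 20 were higher (40%, beside 65.1% of all), and between 20 and 100 kb, 17 of 29 (58.6%, beside 76.4%). Inside a member gene 15 of 28 distal elements were higher, and 10 of 21 outside. Elements of opposite direction could stand close together: of the 21 neighbouring pairs with at most 5 kb between them, 12 were both lower, 4 both higher and 5 of opposite direction. In 3 of these 5 the lower element was at most 175 bp long.

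**Figure D3:**
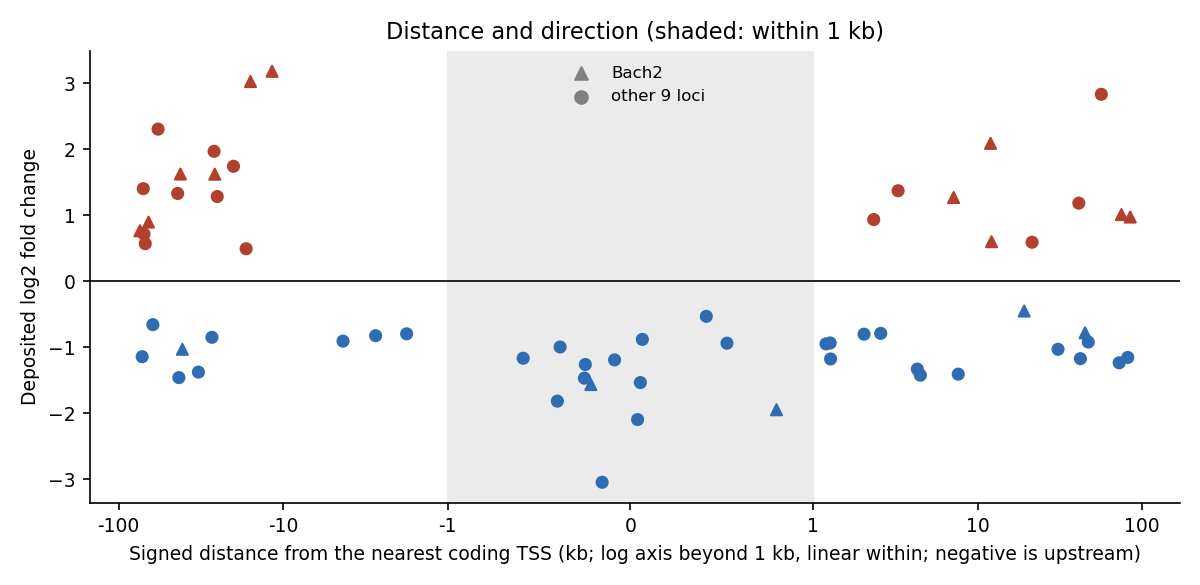
Signed distance from the nearest coding start site in kb (x axis, linear within 1 kb and logarithmic beyond, negative upstream) and deposited log2 fold change (y axis) of the 63 elements. Triangles are Bach2 and circles the other loci, red is higher and blue is lower. The shaded zone within 1 kb holds 14 elements, all lower, and both directions occur on either side of it.

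Higher and lower member elements differed in base composition as the whole table does. The 25 higher ones had a median GC content of 48.5% and the 38 lower ones 63.1%, beside 46.8% and 63.2% over the table. Below 50% GC, 18 of 21 member elements were higher (85.7%), beside 85.6% of all listed elements. At 50 to 60% GC, 7 of 17 were higher (41.2%, interval 18.4 to 67.1%), beside 51.3%. At 60% and above, 0 of 25 were higher (interval 0 to 13.7%), beside 6.25%. The last band held 13 distal member elements, and among all distal elements in it 13.2% were higher.

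Adding up, over the 63 elements, the table-wide share of higher elements in the same distance class and the same decile of GC content gives 30.6, beside the 25 observed. For the distal elements the sum was 28.5 beside 25, for the start-site elements 2.1 beside 0, and for all Bach2 elements 11.1 beside 11. At the other 9 genes it was 19.5 beside 14. The count was thus near the sum at Bach2 and under it at the other genes, and the gap was not tested.

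**Figure D4:**
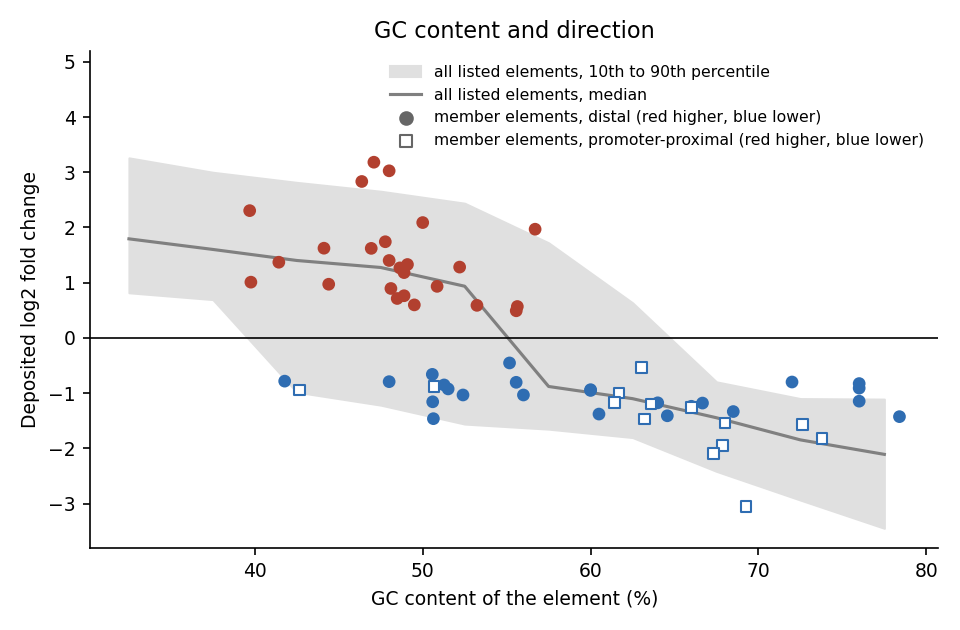
GC content of each member element in percent (x axis) and its deposited log2 fold change (y axis), over the median and the 10th to 90th percentile of all listed elements in steps of 5% GC. Filled circles are distal and open squares promoter-proximal elements, red is higher and blue is lower. No member element at or above 60% GC is higher, and 18 of the 21 below 50% are.

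Length went with direction too, in the opposite order from the whole table. Higher member elements had a median length of 550 bp and lower ones 325 bp, whereas over the table the medians were 450 and 700 bp. Among distal elements the member medians were 550 and 187.5 bp, beside 450 and 500 bp. The 8 member elements of 50 or 75 bp, the shortest in the table, were all lower, beside 29.2% higher among the 1084 such elements listed. Their median GC content was 66%, beside 56% for the 1084. The sum of the table's shares by distance class and GC decile for these 8 was 1.5, beside 0 counted. Without them 25 of 55 member elements were higher (45.5%), beside 50.3% of all elements over 75 bp. What made elements this short pass the authors' test was not tested.

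Words were counted in the 300 bp about the centre of each element, on both strands, and for elements under 300 bp this window includes flanking sequence. The AP-1 word TGANTCA was in 14 of the 25 higher member elements (56.0%) and 4 of the 38 lower ones (10.5%), beside 44.7% of all higher and 6.84% of all lower elements. Bach2 had 4 of 11 higher elements with the word and the other loci 10 of 14. Of the 18 distal member elements with an AP-1 word 14 were higher, and of the 31 without one 11 were. Among all distal elements those shares were 89.4% and 62.1%. Over whole elements the word was in 18 higher (72%) and 7 lower (18.4%) member elements, beside 51.7% and 13.4% of the table. The lengths searched then differ: the medians were 550 and 325 bp for members, beside 450 and 700 bp over the table. The counts per locus are too small to set loci apart.

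Of the other words for factors induced by activation, the STAT word TTCNNNGAA was in 6 higher and 1 lower member elements. These were 24% and 2.63%, beside 17.4% and 5.08% of the table. The NFAT words GGAAAAA or TGGAAAA were in 6 and 3 (24% and 7.89%, beside 14.6% and 5.87%). The IRF word was in 1 and 1 (4% and 2.63%, beside 13.3% and 1.75%). The CREB/ATF word was in 2 and 1 (8% and 2.63%, beside 1.76% and 1.11%). The NF-kB word was in 0 of the 63, beside 3.72% of all listed elements. Over whole elements the NF-kB word was in 1 of the 63, a higher one, beside 5.67%. Together 18 of the 25 higher (72.0%) and 10 of the 38 lower (26.3%) had at least 1 word of these 6 kinds, close to the 70.3% and 19.5% of the table. The NR4A word AAAGGTCA was in 2 higher elements (8%), 1 at Foxo1 and 1 at Myb, and in no lower one. Its shares over the table were 3.80% of higher and 0.783% of lower elements.

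Counts of words for the member factors themselves depended on the stretch searched. In the central 300 bp, TCF/LEF words, CTTTGAA or CTTTGAT, were in 3 higher (12.0%) and 5 lower (13.2%) member elements, beside 13.9% and 4.92% in the table. The MYB words CAACGG or CAACTG were likewise in 3 and 5, beside 17.4% and 15.3%. The BACH/MAF word TGCTGANTC, which holds most of an AP-1 word, was in 1 and 1 (4% and 2.63%, beside 2.65% and 0.995%). The FOXO word was in 0 higher and 2 lower ones (5.26%), at Satb1 and Myb, beside 4.64% and 1.98%. At least 1 word of these 4 kinds was in 7 of 25 higher (28%) and 12 of 38 lower (31.6%) member elements, beside 34.3% and 21.6%. The KLF word was in 5 higher (20%) and 26 lower (68.4%), beside 28% and 63.2%, and its letters are nearly all G and C, as are those of the elements that hold it. The E protein words CAGCTG or CAGGTG, the targets that ID3 keeps E proteins from, were in 9 higher and 17 lower elements (36.0% and 44.7%, beside 30.9% and 36.4%).

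Over whole elements, which leaves out the flanks of short ones and takes in all of long ones, the TCF/LEF words were in 5 higher (20%) and 3 lower (7.89%) member elements, beside 19.3% and 11.5% of the table. The order of the TCF/LEF member shares was thus the reverse of that in the central 300 bp. MYB words were then in 8 higher and 9 lower elements (32% and 23.7%, beside 26.4% and 31.6%). The BACH/MAF word was in 1 and 4 (4% and 10.5%, beside 3.84% and 2.33%). The FOXO word was in 2 and 3 (8% and 7.89%, beside 6.86% and 4.97%). The KLF word was in 10 and 28 (40% and 73.7%, beside 37.6% and 76.3%). The STAT word was in 9 and 2 (36% and 5.26%, beside 22.8% and 11.7%). The NFAT words were in 10 and 6 (40% and 15.8%, beside 20.5% and 14.8%). Members and the table differ in element length, and none of these shares was adjusted for it.

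**Figure D5:**
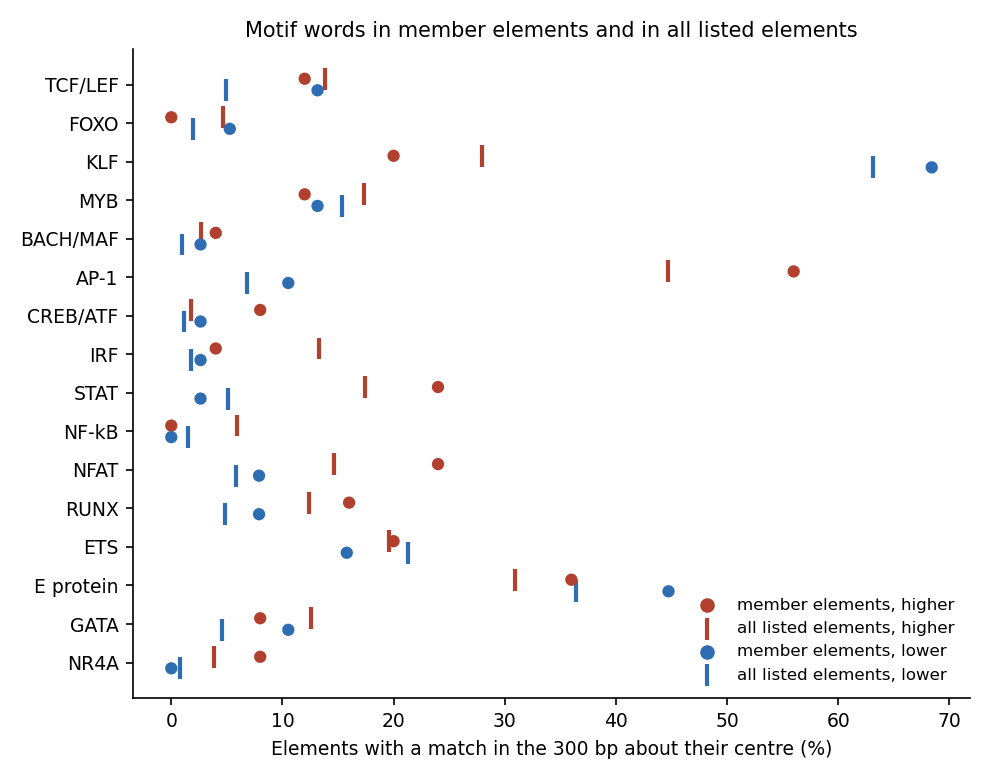
Percent of elements with a match to each kind of word in the 300 bp about their centre (x axis), by kind of factor (y axis). Dots are the 25 higher and 38 lower member elements, ticks are all listed higher (red) and lower (blue) elements. The widest gaps between red and blue dots are those of AP-1 (56.0% against 10.5%) and KLF (20% against 68.4%), and the ticks are ordered in the same way.

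Genes of related pathways give a setting for these counts, with lists chosen with earlier results of these data known. Other genes of naive and memory T cells had 65 higher elements of 103 (63.1%, median 0.87) over 16 of 17 genes. The element with the smallest p in each was 2.66 at Il7r, the receptor for interleukin-7 (6 of 6 elements higher), 2.55 at Foxp1, a quiescence factor (12 of 20), 2.38 at Runx1 (10 of 14) and 2.07 at Klf6 (11 of 11). Genes of the opposing effector programme had 43 higher of 57 (75.4%, median 1.09) over 12 of 12 genes, led by 2.85 at Il2ra, 1.67 at Havcr2, 2.00 at Bhlhe40 and 3.20 at Tbx21. Both shares stood above the 39.7% of the 10 loci, and the gap was not tested. The sum of the table's shares by distance class and GC decile came to 70.0 higher elements for the naive and memory list, beside the 65 counted, and to 37.4 for the effector list, beside the 43 counted.

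Cofactor and Wnt pathway genes tied to TCF-1 and LEF-1 had 13 higher elements of 29 (44.8%, median -0.82). All 11 of their start-site elements were lower, beside 86.7% of all listed promoter-proximal elements. Their leading elements were 2.21 at the Wnt coreceptor gene Lrp6, 2.57 at Bcl9, 1.18 at Tle4, a Groucho-type corepressor, and -2.16 at Apc. The list drawn up for the pathway that controls FOXO1 had 13 higher of 32 (40.6%, median -0.81) over 9 of 11 genes, again with all 13 start-site elements lower. Its leading elements were 1.29 at Pik3cd and 1.36 at Pik3r1, the genes of PI3-kinase subunits, -1.93 at Pik3ip1, an inhibitor of that kinase, and 3.61 at Pdk1. In the mouse the symbol Pdk1 stands for a pyruvate dehydrogenase kinase, a metabolic enzyme outside this pathway. The 2 elements of Pdk1, both higher, are counted in the list. Paralogs of the members had 27 higher of 51 (52.9%, median 0.81) over 17 of 21 genes, led by 2.60 at Bach1, 2.07 at Klf6, -2.63 at Klf3 and -2.18 at Mybl1. The sum of the table's shares by distance class and GC decile came to 12.8 for the cofactor list, beside the 13 counted. It was 15.9 beside 13 for the FOXO1 pathway list and 24.3 beside 27 for the paralogs. Klf3, Klf6, Foxo3, Foxo4 and Id2 each stand in more than 1 list.

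Loci that mark cell types were counted as a setting only, since the assay reads fragments and not which genes the cells express. T cell identity genes had 14 higher of 16, led by 2.44 at Cd2 and 2.10 at Cd5, with 0.89 at Cd3e and 0.95 at Cd3d. B cell genes had 4 of 8, with 2.32 at Ebf1 and 0.94 at Pax5, and myeloid genes 0 of 2, with -1.37 at Cebpa and -1.61 at Csf1r. The sums of the table's shares by distance class and GC decile were 10.6 for the T cell genes, 4.5 for the B cell genes and 0.56 for the myeloid genes. The part of other cell types in the values of the 10 loci was not tested.

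At the distance limit, the members farthest out were 0.97 at Bach2 (84.8 kb) and -1.16 at Bcl11b (81.9 kb). The nearest left out were 0.92 at Foxo1 (101 kb), 1.55 at Bach2 (112 kb) and 0.66 at Satb1 (113 kb). Some loci had their larger values beyond it. Upstream of Satb1, chr17:52076551-52077225 at 244 kb and chr17:52162326-52163275 at 330 kb both had 3.12 (q = 2.70e-19 and 6.38e-20), above every member at Satb1. In all, 16 elements from 100 to 500 kb had a member as their nearest gene and 12 were higher (75%), beside 86.6% of all elements at that distance. They included 1.58 inside Tox, the only higher element nearest to that gene out to 500 kb, and -2.66 and -2.15 upstream of Lef1.

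A further 5 elements lay inside a member gene but nearer to the start of another coding gene, and so were not members. In Lef1, chr3:131208076-131209075 had 1.47 and was assigned to Hadh. In the last part of Bach2, chr4:32564476-32564775 had 2.67 (q = 1.02e-13) and the other 3 had -1.35, -1.11 and -1.03, all nearer to Gja10. With these counted by gene body, the third highest value of the Bach2 gene would be this one.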

How the data were processed

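STARR-seq reads of 4 biological replicates of mouse Th17 cells were combined by the authors into 1 element table on mm10, per the labels and the deposited notes. The deposited table gives a log2 fold change, a p-value and a q-value for each of 24232 elements, and its last column is the element length, another deposited value. The aligner, the caller, the input DNA, the log base and the direction of the ratio were not given in the sources used here. Those q-values match Benjamini-Hochberg adjustment over 114722 tests for all 24232 elements, within a relative 1e-06. Elements on the chromosomes (24217; 15 lay on other contigs) were linked to the nearest coding start site of GENCODE vM21, and base composition and words were read from GRCm38.p6 with Python 3.11.15, pandas 2.3.3, NumPy 2.4.6 and SciPy 1.17.1. Near-identical copies (at least 95% identity over 90% of the element) were sought with minimap2 2.31-r1302 and none was found for the 63 members. No test was run: counts, medians and exact (Clopper-Pearson) 95% intervals are set beside the same over all listed elements. The functions were tested on simulated data. Every element was named at loci with at most 6 (1 element is not reported here), and otherwise the highest, the lowest, the one with the smallest q and those within 1 kb of a start site, while list genes were named by their 4 smallest p-values; further elements were chosen after their values were seen. Alternatives were other distance limits, other start-site sets, the gene body, stricter thresholds, distal elements alone, 1 value per gene, each locus left out and words over the whole element. The members and lists were chosen with earlier results of these data known. A control experiment that the labels name was not analysed here.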

Additional observations from a re-analysis of the deposited data

How the results depend on the processing

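The share of higher elements (39.7%) fell to 23.5% (8 of 34) with links within 20 kb, and under the other alternatives run it stayed within the interval of 27.6 to 52.8%. Leaving out each locus in turn gave 29.8 to 42.9%, the lowest without Bach2, with medians from -0.92 to -0.79 and 47 to 61 elements. The median of -0.80 turned to 0.49 among distal elements alone, and was -1.15 once values between -1 and 1 were left out. With 1 value per gene, that of its element with the smallest p, it was -0.14 (5 of 10 higher). Such a value does not summarise a locus: the median over a locus's own elements was above 0 only at Bach2 (0.93) and Foxo1 (0.64). The 63 elements became 34 within 20 kb, 40 with start sites of any transcript, 38 without values between -1 and 1, and 10 with 1 value per gene. Alternatives chosen after seeing the data gave 40% (distal elements without Bach2) and 45.5% (without elements of 50 or 75 bp). Over whole elements instead of the central 300 bp, AP-1 words were in 18 higher and 7 lower member elements instead of 14 and 4, KLF words in 10 and 28 instead of 5 and 26, NFAT words in 10 and 6 instead of 6 and 3, and TCF/LEF words in 5 and 3 instead of 3 and 5. Values per replicate are not in the table, so no replicate could be left out, and the sign of single elements has no alternative. No paired analysis was possible because there is 1 group. Depth is unknown, and elements that missed the authors' threshold are not listed.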
